A study of Caenorhabditis elegans with 12 samples.

Results

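The lin-54; mes-4 double mutant was compared with the lin-54 single mutant, to ask what the loss of MES-4 does to germline transcripts where LIN-54 is missing as well. The members are the 6 arrays whose titles carry these genotypes, 3 of lin-54(n3423) and 3 of lin-54(n3423); mes-4(ok2326), out of 12 arrays over 4 genotypes. The other 6 arrays, 3 of wild type (N2) and 3 of mes-4(ok2326), are given beside them for reference. RNA was taken from pools of dissected gonads of hermaphrodites grown at 20° and aged 24 hr past L4, cut to hold germ cells of the mitotic zone up to late pachytene. The mutants were homozygous animals of heterozygous mothers carrying the balancer nT1, so both genotypes compared had received maternal gene product and made no wild-type product of their own. Both genotypes lack lin-54, and mes-4(ok2326) is the only allele that separates them. Each value is an RMA level on the log2 scale from an Affymetrix array, and a level is a signal of hybridised RNA, so fewer cells of a type and less RNA per cell cannot be told apart.

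MES-4 is a histone methyltransferase that places methyl groups on lysine 36 of histone H3, and in C. elegans germ cells it occupies genes that the germline expresses. LIN-54 is a DNA-binding subunit of DRM, a complex named after DP, Rb and MuvB that represses some genes and activates others. The X chromosomes of the hermaphrodite germline carry few MES-4-marked genes and are kept at low transcript levels through pachytene.

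The label lin-54 was borne out by the probe set annotated to that gene. This probe set and both of mes-4 are of a type shared between transcripts. The lin-54 level was 6.40, 7.76 and 6.32 in the lin-54 arrays and 6.81, 6.65 and 6.33 in the double mutant, against 10.78 to 10.86 in wild type. The label mes-4 was borne out less clearly in the double mutant. One mes-4 probe set read 9.70, 9.77 and 9.76 in lin-54 and 9.65, 9.27 and 9.49 in the double mutant, a change of −0.27 (q = 0.156), against 9.81 to 9.84 in wild type and 9.01 to 9.22 in mes-4, where the change was −0.73 (limma q = 0.00101). The other read 10.67, 10.46 and 10.26 in lin-54 and 10.35, 10.10 and 9.92 in the double mutant, with overlap (−0.33, q = 0.18), against 10.39 to 10.55 in wild type and 9.59 to 9.82 in mes-4. Both were lower in the double mutant than in lin-54 on average, but neither difference passed the threshold, and the 2 falls of the first probe set were not shown to differ (interaction 0.46, q = 0.756). The authors report that mes-4(ok2326) homozygotes still make a truncated mes-4 transcript, found by qRT-PCR. They saw no MES-4 protein by immunostaining and regard the allele as likely null. Where these probes lie relative to the deletion is not given in the sources used here. Germ cell markers (12 genes, among them gld-1 and him-3) had medians from 10.27 to 10.98 over the 6 arrays, as for dissected germlines, while markers of neurons (6 genes) had medians of 5.27 to 5.43. The median of 44 sperm genes ranged more widely, from 6.54 to 8.75 in lin-54 and from 7.07 to 8.37 in the double mutant, and the groups overlapped. All 6 of these arrays lay above the reference arrays, at 6.12 to 6.16 in wild type and 5.96 to 6.13 in mes-4. Pearson's r between arrays over all probe sets was 0.989 to 0.995 within a genotype and 0.977 to 0.991 between the 2 genotypes.

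X-linked transcripts were higher in the double mutant. Of 2355 X-linked genes, 211 were called up and 6 down (limma, q at or below 0.05), which is 8.96% and 0.255% of them. Over all 17085 genes 1.79% were called up and 1.14% down. Among the 14722 autosomal genes 94 rose (0.639%) and 189 fell (1.28%). The sizes differed as much as the counts. The median log2 change of the called X-linked genes was 2.15, with 184 of them over 2-fold and 35 over 8-fold, whereas that of the called autosomal increases was 0.84, with 35 over 2-fold and 1 over 8-fold. The 3 double-mutant arrays lay outside the range of the 3 lin-54 arrays in every called gene, where 21.5% of all genes had such non-overlapping arrays.

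Genes for membrane traffic proteins, put together by hand here after their values were seen, stood among the 20 largest X-linked increases. apa-2, the alpha subunit of the AP-2 adaptor that links cargo to clathrin at the plasma membrane, was at 4.15, 4.08 and 3.84 in lin-54 and at 7.46, 8.16 and 7.61 in the double mutant. All 3 double-mutant arrays stood far above every lin-54 array, and the change was 3.72 (SE 0.26, limma q = 1.07e-05). trpp-9, a subunit of the TRAPP tethering complex of the Golgi, rose from 5.51, 4.88 and 4.66 to 8.03, 9.08 and 8.50, a change of 3.52 (SE 0.35). tbc-1, a predicted activator of Rab GTPases, rose from 7.60, 7.07 and 6.89 to 10.70, 10.67 and 10.48, the tightest double-mutant arrays among the 20 largest increases (SD 0.12, n = 3). Outside those 20, vps-41, a subunit of the HOPS complex that tethers lysosomes, rose from 5.41, 5.84 and 6.08 to 8.75, 9.01 and 9.02.

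Of the 54 measured genes for vesicle tethering and endosomal sorting, 7 rose (1.79% of all genes did) and none fell, and the median change of the list was 0.14 beside −0.06 over all genes. The count of 7 was 3 to 8 under other settings. The X chromosome holds 6 of the 54, of which 4 rose: vps-52 of the GARP complex (3.78), vps-41 (3.15), and the exocyst subunits sec-15 (1.99) and sec-3 (1.56). vps-45 and snx-1 had changes of 0.06 (q = 0.663) and 1.21 (q = 0.212), and snx-1 was high in double-mutant replicates 2 and 3 alone (6.77, 8.28 and 7.89). The autosomal members that rose did so by less, namely vps-53, the GARP partner of vps-52, by 0.58 (q = 0.00995), the endosomal DnaJ protein gene rme-8 by 0.55 and the Golgi tether gene cogc-5 by 0.41. Subunits of clathrin adaptors, grouped after their values were seen, split by chromosome as well. The X-linked apa-2, aps-2 (2.70), apm-3 (2.49) and dpy-23 (2.29) all rose, and none of the 7 autosomal subunits was called, their changes lying between −0.16 and 0.13.

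Several X-linked mitochondrial genes rose. emre-1, whose product is an essential part of the mitochondrial calcium uniporter, was at 6.28, 5.38 and 5.86 in lin-54 and at 9.04, 9.95 and 9.53 in the double mutant, a change of 3.67 (SE 0.37, limma q = 0.000117). Of 29 genes of mitochondrial dynamics and import 2 rose, both X-linked: immt-1, a mitofilin of the cristae junctions, by 1.68, and fis-2, an adaptor of mitochondrial fission, by 4.04. The other X-linked members, mff-1 and miro-2, had changes of 0.57 (q = 0.341) and −0.27 (q = 0.177), and none of the 25 autosomal members was called. Over all genes 1.79% rose. The 4 X-linked members had a median wild-type level of 7.3, and 35.7% of X-linked genes at 7 to 8 rose. All 6 X-linked genes of oxidative phosphorylation rose: ucr-2.1, ucr-2.2, gas-1, asg-2, asb-2 and sdha-1, the last a flavoprotein subunit of complex II that went from 8.46, 7.89 and 7.76 to 10.18, 11.68 and 10.73. None of the 39 autosomal genes of that list was called, and none reached an unadjusted p under 0.05. Close relatives can share probe sequence, so levels from probe sets of a type shared between transcripts are less certain. The probe sets of gas-1 and eef-1A.2 are of that type. eef-1A.2 is an X-linked gene for translation elongation factor 1-alpha that rose by 3.44. Probe sets of that type gave 81 of the 211 X-linked increases, tbc-1 and immt-1 among them, and 41 of the 94 autosomal increases.

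Enzymes and regulators stood among the largest increases too. acl-1, an acyltransferase gene of phospholipid synthesis, rose from 7.24, 7.22 and 6.90 to 10.38, 10.49 and 10.71. aakg-2, a regulatory gamma subunit of AMP-activated kinase, rose from 5.44, 5.21 and 4.65 to 7.77, 8.95 and 8.78, with replicate 1 the lowest of the double-mutant arrays. pcca-1, a propionyl-CoA carboxylase subunit (limma q = 0.00986), and nkat-3, a kynurenine aminotransferase (3.78), rose, but the other 11 of 13 X-linked genes of amino acid and one-carbon metabolism were not called. The list's X-linked median was 0.17.

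Chromatin and X-dosage genes changed one by one. utx-1, an H3K27 demethylase, rose by 3.43, while its relatives jmjd-3.1, jmjd-3.2 and jmjd-3.3, X-linked as well, were at 4.67 to 6.44 on the 6 arrays with changes of −0.11, 0.12 and −0.12. Of the 4 X-linked synMuv and heterochromatin genes measured, lin-15A (1.83), lin-15B (2.06) and chd-3 (2.29) rose, and hpl-1, an HP1 gene, had a change of 0.20 (q = 0.417). The autosomal cec-4, whose chromodomain protein anchors heterochromatin at the nuclear periphery, also rose, which made 4 increases among the 24 listed genes, from 9.28, 8.62 and 8.90 to 9.87, 10.62 and 10.11. Of 6 X-linked genes of dosage compensation and sex determination, ceh-39 (1.70) and sdc-1 (0.91, q = 0.042) rose, and sdc-2, xol-1, sex-1 and fox-1 had changes of 0.20 to 0.33, none with a q below 0.35.

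Increased genes could lie side by side. On the array 6 runs held 3 or more neighbouring genes that all rose, with 19 genes in all, and every run was on the X chromosome (gene order from the WBcel235 annotation). The longest, of 4 genes, was flwr-1, tbc-1, F20D1.3 and emre-1, with changes of 3.63, 3.43, 3.70 and 3.67. F20D1.3 was the brightest of them, at 8.87, 8.74 and 8.22 in lin-54 and 11.96, 12.66 and 12.32 in the double mutant. A second run held 3 homeobox genes of the ONECUT type, ceh-41 (2.14), ceh-21 (1.86) and ceh-39 (1.70), which start from unequal levels: ceh-41 was at 4.73 to 5.17 in lin-54, ceh-21 at 7.07 to 7.48. mig-23, R07E4.5 and R07E4.3 made another run (2.23, 2.78 and 3.37), and pak-1, a kinase gene, C45B2.6 and the glutamine synthetase gene gln-1 yet another (2.87, 2.47 and 2.94). The remaining runs, of 3 genes as well, were C34F6.7, idh-2 and C34F6.9 (between 2.12 and 3.29) and rab-14, nipi-3 and K09E9.3 (2.13, 2.93 and 2.26). Of 395 X-linked genes with at least 1 adjoining gene called up, 95 rose, compared with 116 of the 1960 without one (5.92%). Genes of one operon or with overlapping ends are among such neighbours, and their part in this difference was not tested. Along the chromosome, cut into 10 parts of equal gene number, the share called up ran from 5.51% to 11.9% and no part was free of increases.

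The share of X-linked genes that rose was larger at higher wild-type levels. The wild-type arrays take no part in the difference between the double mutant and lin-54, although they enter the estimate of its spread. Of 759 X-linked genes with a wild-type level under 5, where signal is close to the bottom of the scale, 2 rose (0.264%), apa-2 among them with wild-type levels of 5.25, 4.65 and 4.96. The share was 3.25% at 5 to 6 (25 genes), 12.7% at 6 to 7, 35.7% at 7 to 8 and 47.4% at 8 to 9. At 7 or more it was 117 of 300 X-linked genes compared with 48 of 4848 autosomal genes (0.99%), and the other 183 of the 300 were not called. Leaving out probe sets of the shared type brought the 117 down to 76. Genes with no other probe set drop out of that count, so it is not a share of the 300. The median change of those 300 X-linked genes was 0.74, and 247 of them lay above 0, whereas autosomal genes at these levels had a median of −0.03. Low signals compress a change on this scale, and small changes of dim genes could not be measured.

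**Figure D1:**
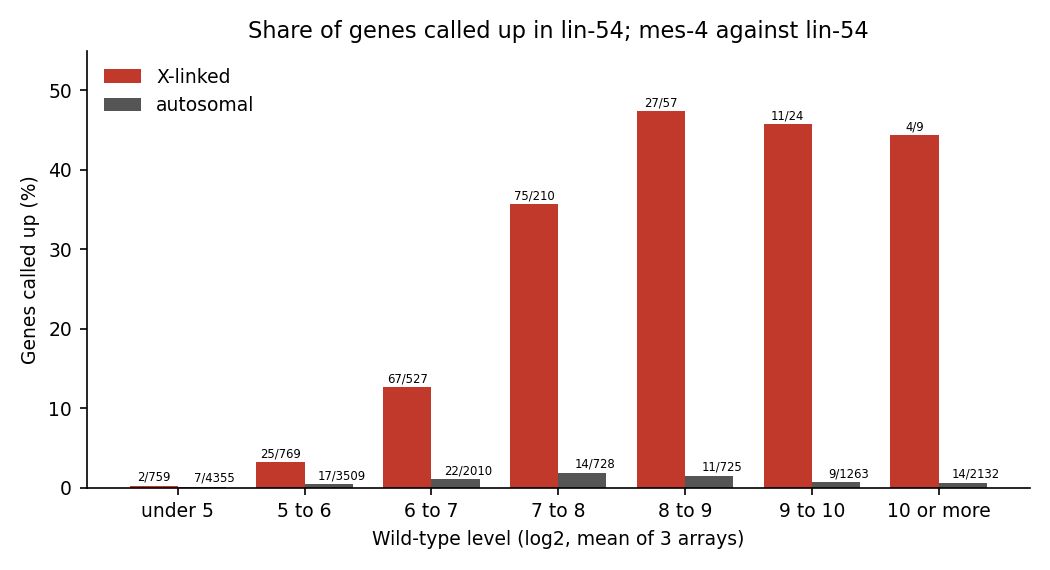
Bars give the percentage of X-linked (red) and autosomal (grey) genes called up in lin-54; mes-4 against lin-54, for genes sorted by wild-type level (log2, mean of 3 arrays), with the genes called over the genes tested above each bar. The X-linked share goes from 0.264% under a level of 5 to 47.4% at 8 to 9, and the autosomal share stays at or under 1.92%.

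Genes of somatic tissues were mostly dim. The 6 lists of somatic genes, for muscle, intestine, neurons, hypodermis and cuticle, the somatic gonad and tissue-specifying transcription factors, had 84 X-linked members together, with a median wild-type level of 5.64. Of those 84, 1 rose, beside 8.96% of all X-linked genes and 3.25% of those at a wild-type level of 5 to 6. The lists differed in level, with X-linked medians of 5.0 for transcription factors, 6.39 for muscle and 7.03 for intestine. None of the 13 X-linked muscle or 12 X-linked intestine genes was called. At levels of 6 to 7 and 7 to 8, 12.7% and 35.7% of X-linked genes rose. Whether the somatic genes differ from X-linked genes of like level was not tested. The 1 increase was unc-18, which binds syntaxin in synaptic vesicle release. Its levels were 6.37, 5.29 and 5.57 in lin-54 and 7.31, 9.02 and 7.91 in the double mutant, a change of 2.34 (SE 0.52, limma q = 0.0302). The median change of the 84 was −0.09. For muscle, none of 40 genes was called, 6 were higher and 3 lower at an unadjusted p under 0.05, and up to 6 were called up under other settings. For intestine none of 44 was called, 6 were lower at that p and the median was −0.22. Yolk genes of the intestine were uneven between arrays of 1 genotype: vit-2 was at 9.07, 9.33 and 6.32 in lin-54 and at 7.49, 6.62 and 7.46 in the double mutant, so the groups overlapped.

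**Figure D2:**
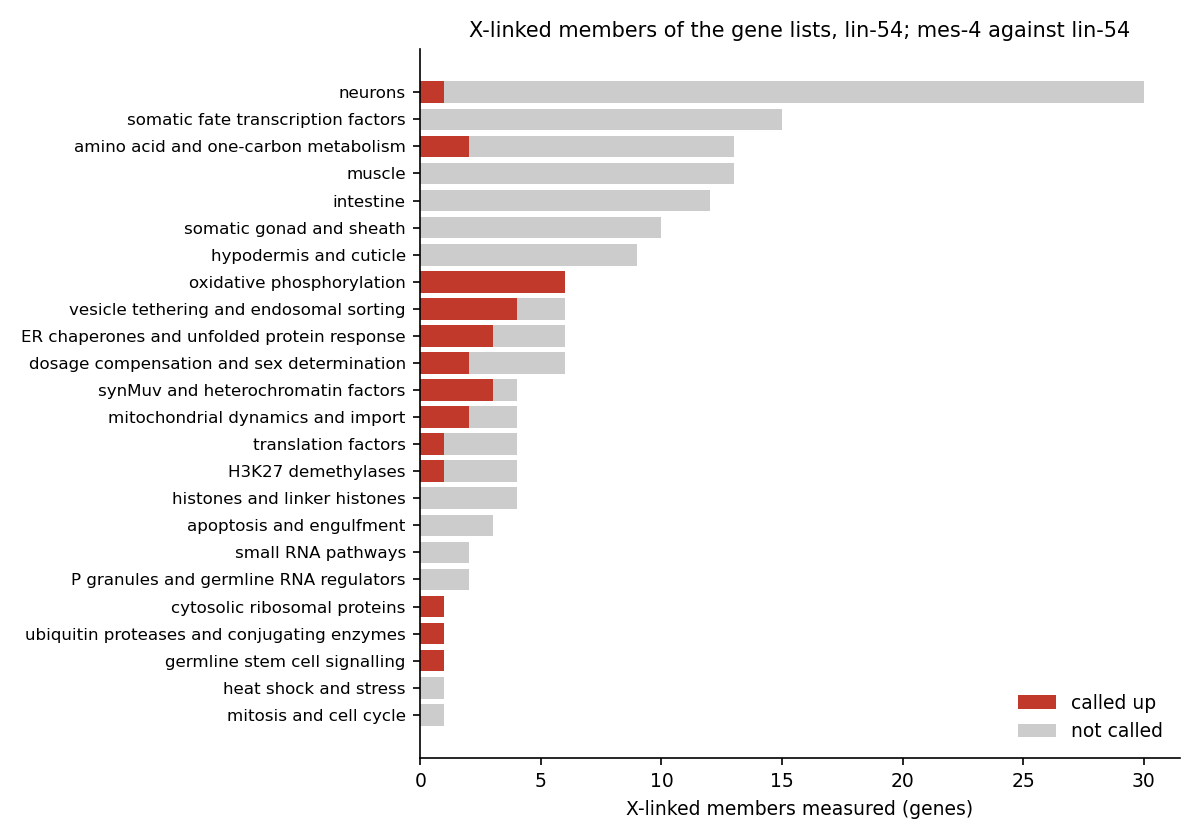
Bars give the number of X-linked members measured in each gene list, in red those called up in lin-54; mes-4 against lin-54 and in grey those not called. All 6 members for oxidative phosphorylation and 4 of 6 for vesicle tethering are red, while 1 of 30 neuronal members and none of 15 for somatic fate transcription factors are.

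The few X-linked decreases were small. unc-1, a stomatin-like gene of neurons, went from 7.15, 7.22 and 7.34 to 6.79, 6.86 and 6.71, a change of −0.45 (SE 0.11, limma q = 0.0458). nspg-12 (−0.43), the G protein alpha subunit gene gpa-6 (−0.37), lact-7 (−0.36), the potassium channel gene kqt-2 (−0.36) and ZK899.3 (−0.34) were the others. With the arrays centred, 1 of the 6 X-linked decreases stayed called. Among those no longer called were unc-1, nspg-12, lact-7 and kqt-2 (q = 0.0516 to 0.0938). In gpa-6 the double-mutant levels of 4.64, 4.78 and 4.73 overlapped those of wild type, 4.84, 4.71 and 4.75, and lin-54 lay above both at 5.06 to 5.13. On probe sets not of the shared type alone, kqt-2 had a change of 0.13 (q = 0.438).

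The 211 X-linked increases were set beside the other genotypes. Their median was 6.63 ± 0.22 in lin-54, 7.26 ± 0.18 in wild type, 8.86 ± 0.40 in the double mutant and 9.14 ± 0.47 in mes-4 (mean ± SD of 3 array medians). Since the genes were chosen by a low level in lin-54 and a high one in the double mutant, a choice that also favours a wild-type level between them, this order is a description and not a result. In 197 of the 211 the lin-54 mean was below the wild-type mean, and in 197 the double-mutant mean was above it, which the same choice favours. pdi-6, a protein disulfide isomerase gene of the endoplasmic reticulum, was at 7.91 to 8.11 in lin-54, 9.11 to 9.77 in wild type, 9.98 to 10.68 in the double mutant and 11.15 to 11.57 in mes-4. rpl-11.2, a ribosomal protein gene whose probe set is of the shared type, had another order, since lin-54 (10.87, 9.85 and 9.43) overlapped wild type (9.47, 9.17 and 9.34) and was higher on average.

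**Figure D3:**
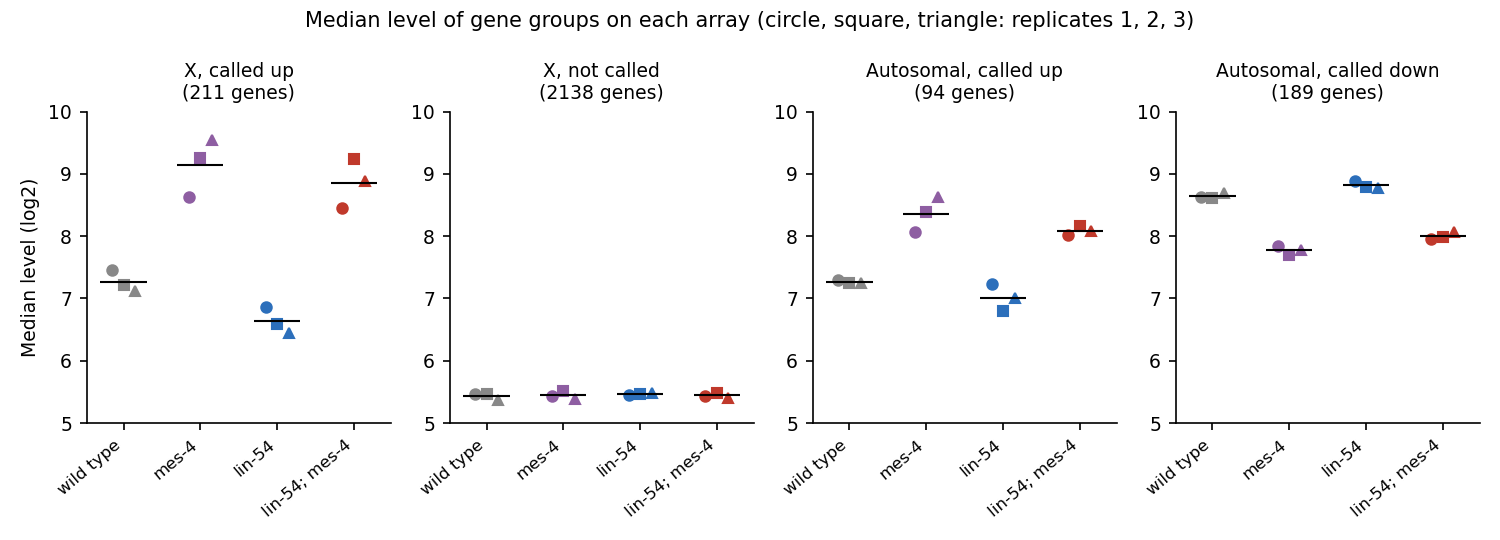
Points give the median log2 level of each gene group on each of the 12 arrays by genotype, with circles, squares and triangles for replicates 1, 2 and 3 and a line at the mean of the 3. The 211 X-linked increases lie at 6.44 to 6.87 in lin-54 and at 8.45 to 9.24 in the double mutant, and the 2138 X-linked genes not called stay between 5.37 and 5.52 in all 12 arrays.

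The arrays of a genotype were not alike over these genes. lin-54 replicate 1 was the highest of the 3 lin-54 arrays in 163 of the 211, and double-mutant replicate 1 the lowest of its group in 183. Without lin-54 replicate 1 the count of X-linked increases was 266; without lin-54 replicate 2 or 3 it was 140 or 132. Over all X-linked genes the median level lay below the autosomal median by 0.33, 0.29 and 0.31 in the double mutant and by 0.37, 0.39 and 0.39 in lin-54. The difference between genotypes was 0.07, with no overlap of arrays (two-sided exact permutation test, p = 0.1, the smallest that 3 against 3 arrays can give). At the 95th percentile of the levels, where expressed genes lie, the X chromosome was below the autosomes by 2.32 ± 0.42 in the double mutant and by 3.68 ± 0.22 in lin-54 (SD, n = 3, exact permutation p = 0.1).

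On the autosomes more genes fell than rose, but that balance depends on scaling. Of the 283 called autosomal genes 94 had risen. With each array centred on the median of its autosomal probe sets 144 rose and 97 fell, so that 59.8% had risen, while the X-linked count was 218. Without lin-54 replicate 1 the split was 189 to 188. The median change over all genes was −0.06 before centring. The 10 largest increases and the 10 largest decreases, given next, were called with the arrays centred too. Over the other settings tried, enri-1 kept its call in 7 of 19, fbxb-97 in 11 of 20 and atg-16.2 in 14 of 19.

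dnj-26, which encodes a J-domain protein, had the largest decrease, from 8.78, 8.29 and 8.20 in lin-54 to 5.71, 4.41 and 5.83, a change of −3.11 (SE 0.31, limma q = 0.000108). arrd-13, an arrestin-domain gene, went from 9.51, 9.57 and 9.58 to 7.29, 7.15 and 7.13, with little spread in either genotype (SD 0.04 and 0.08, n = 3). tcab-1, named after a telomerase Cajal body protein, went from between 8 and 8.38 to 6.58, 6.15 and 6.34, a change of −1.88 (SE 0.13), and trt-1, the telomerase reverse transcriptase gene, fell by 0.71 (q = 0.00105); trt-1 was picked out after its value was seen. ulp-5, a SUMO protease gene, fell by 1.63 and oatr-1, the ornithine aminotransferase gene, by 1.48. Y48G9A.7, Y55F3AM.11, T04D3.8, Y22D7AL.9 and F57A10.2 completed the 10 largest decreases, between −2.94 and −1.67. F57A10.2 was unlike the rest in its reference levels, since lin-54 at 8.57 to 8.75 and the double mutant at 6.78 to 7.21 were both above wild type at 5.89 to 6.10.

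Some mitochondrial ribosomal protein genes fell, a family picked after the calls were seen. All 59 measured (symbols mrpl and mrps) are autosomal. Of these, 8 fell and none rose. Of all autosomal genes 1.28% fell, and 2.38% and 2.11% did at wild-type levels of 9 to 10 and of 10 or more. At an unadjusted p under 0.05, 25 of the 59 were lower, beside 10.3% of autosomal genes. A change below 0 was found in 54, with a median of −0.23 beside −0.06 for all genes. mrpl-34 went from 11.55, 11.70 and 11.68 to 10.93, 11.11 and 11.11, a change of −0.59 (q = 0.00185), and mrps-25 from 11.17, 10.93 and 11.02 to 10.69, 10.20 and 10.38. The calls were fewer under other settings: 2 genes were called after centring, with a median of −0.17 beside 0.02, and 1 without double-mutant replicate 2 or without lin-54 replicate 3. Without double-mutant replicate 2 the median was −0.11 beside −0.06 for all genes, and 45 of the 59 were below 0. mrps-22 was low in that double-mutant array, at 10.42, 9.35 and 10.64 in the double mutant against 10.50 to 10.77 in lin-54.

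Germline lists had a called decrease here and there, read beside 1.28% of autosomal genes. Of 36 genes of meiotic prophase and recombination htp-1, a HORMA-domain axis gene, fell by 0.35 (q = 0.0146). Of 35 replication genes psf-2, of the GINS complex, fell by 0.61 (q = 0.024). hrde-1, the nuclear Argonaute gene of heritable silencing, went from 9.71, 10.14 and 10.25 to 9.19, 9.52 and 8.99, a change of −0.80 (SE 0.18, q = 0.0292), and alg-2, a microRNA Argonaute gene, rose by 0.97 (q = 0.0403), out of 41 small RNA genes. At an unadjusted p under 0.05, 7 of the 36 meiotic genes, 6 of the 35 replication genes and 8 of the 41 small RNA genes were lower, beside 1519 of 14722 autosomal genes (10.3%), and 3, 1 and 4 were higher. None of 36 P-granule and germline RNA genes, 20 oocyte and eggshell genes or 67 genes of mitosis and the cell cycle was called by limma. At an unadjusted p under 0.05, 2, 4 and 3 of these were higher and 3, 2 and 3 lower, and under other settings at most 2 were called in either direction in any of the 3 lists. Of the 44 sperm genes none was called, none reached that p in either direction, and none was called under any other setting, at levels that varied by array as given above. Stress and translation genes called down were daf-16 (−0.30), the catalase gene ctl-2 (−0.40) and eif-6 (−0.40), each with a q of 0.04 or more. The translation gene called up, eef-1A.2, is given above. After centring of the arrays htp-1, psf-2, eif-6, ctl-2 and daf-16 were not called (q = 0.0506 to 0.146).

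The autosomal increases were led by R06C1.4, a gene measured by a probe set of the shared type alone. It was at 9.43, 7.48 and 7.78 in lin-54 and at 12.20, 12.48 and 11.25 in the double mutant, a change of 3.75 (SE 0.44, limma q = 0.000432), and at 9.05 to 9.48 in mes-4. fbxa-65, an F-box gene, rose by 2.35 and fbxb-97, another, by 1.55, the latter from 5.14, 5.41 and 5.62 to 6.69, 7.95 and 6.18 with wild type at 6.17 to 6.61. scrm-4, a phospholipid scramblase gene, rose from 7.26, 6.76 and 7.22 to 8.55, 9.03 and 9.49. atg-16.2, of autophagosome formation, rose by 1.62 (SE 0.35, q = 0.024), enri-1 by 1.52 (q = 0.0449) and C08F11.7 by 1.69. lin-59, which encodes a SET-domain protein related to fly Ash1, was the 1 called gene among 8 MES and H3K36 factors, going from 7.48, 6.79 and 7.32 to 7.98, 8.77 and 8.21.

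A pair of histone genes of one cluster rose, his-41 by 1.39 (q = 0.00764) and his-37 by 1.35 (q = 0.0163), out of 25 histone and linker histone genes measured. his-41 was at 8.50, 8.64 and 8.65 in lin-54 and 9.44, 10.66 and 9.88 in the double mutant. Histone copies resemble one another closely, so which copy gave the signal is uncertain. dnj-27 of the endoplasmic reticulum rose by 1.03 (q = 0.0396), the autosomal gene among 4 increases in the 20 genes of chaperones and the unfolded protein response, beside the X-linked pdi-6 (2.28), pek-1 (1.86), the PERK kinase gene, and atf-6 (1.52). Over all genes 1.79% rose. That list had the highest median of the 30, 0.31, with 11 of 20 genes higher at an unadjusted p under 0.05, beside 1013 of all 17085 genes. The X chromosome holds 6 of the 20, with a median of 1.31 and 3 of the 4 increases. The 4 increases of the list were 1 to 5 under other settings, and dnj-27 kept its call in 7 of 19.

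**Figure D4:**
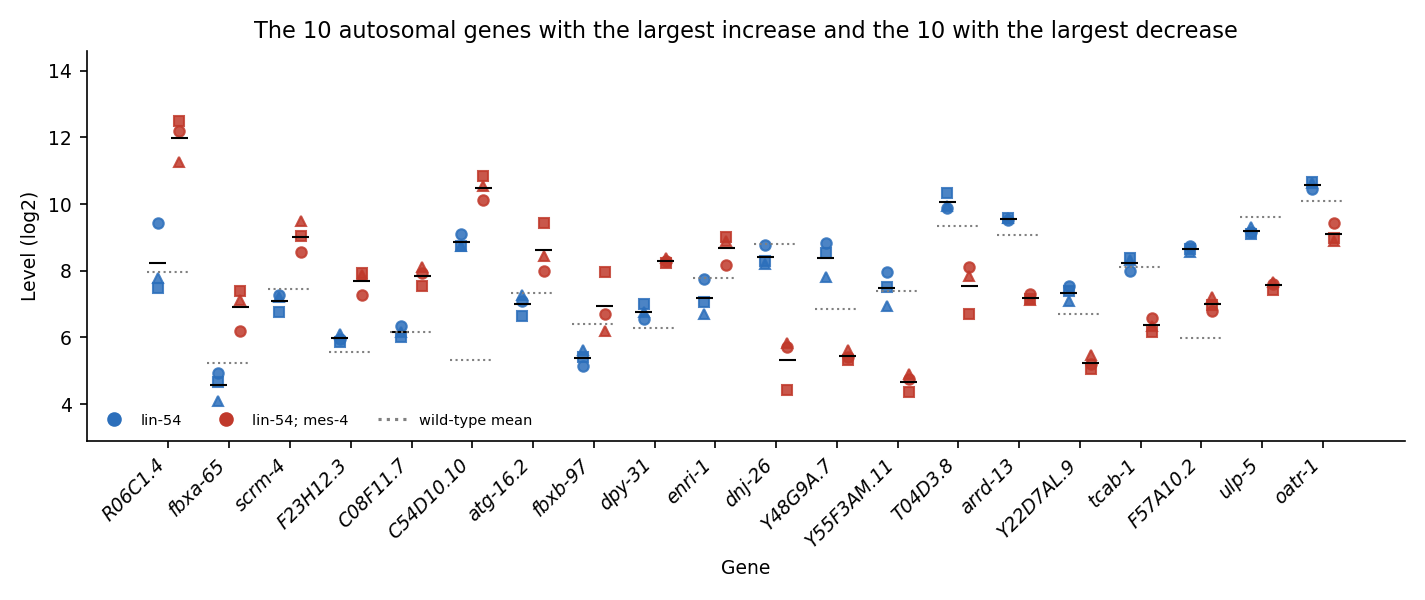
Points give the log2 level of each array for the 10 autosomal genes with the largest increase (left) and the 10 with the largest decrease (right), in lin-54 (blue) and lin-54; mes-4 (red), with circles, squares and triangles for replicates 1, 2 and 3, a line at each mean and a dotted line at the wild-type mean. The 2 genotypes do not overlap in any of the 20 genes. In C54D10.10, F57A10.2, F23H12.3 and dpy-31 all 6 arrays lie above the wild-type mean.

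The loss of MES-4 in otherwise wild-type germlines, mes-4 minus wild type, sets other arrays against each other, but both differences were tested with a spread estimated over all 12 arrays, so their calls are not separate measurements. It called 17.7% of X-linked genes up and 0.17% down, and 1.85% of autosomal genes up and 2.23% down. Nearly all X-linked increases were called up there as well, 200 of the 211 (94.8%, and 47.8% of the 418 called in mes-4), and none of the 6 X-linked decreases was called down. Of the 94 autosomal increases 45 were called up there too, out of the 272 called in mes-4. Of the 189 decreases 102 were shared, out of the 329 called in mes-4, and no gene was called in opposite directions. arrd-13 (−2.36 in the double mutant, −2.22 in mes-4), tcab-1 (−1.88 and −2.01) and fbxa-65 (2.35 and 2.85) had close values. R06C1.4 (3.75 and 1.31) and dnj-26 (−3.11 and −1.34) were less alike, although neither passed the limma interaction (q = 0.566 and 0.474). Pearson's r between the 2 changes was 0.601 across 14722 autosomal genes, which are not independent replicates.

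Whether the 2 changes differ was tested by the interaction, and 6 genes passed (limma q at or below 0.05, 0.0351% of those tested). That count was frail, being 1 with the replicate block and 1 to 23 when single arrays were left out, 1 to 3 for most of them. None of the 6 was X-linked. dpy-31, an astacin protease gene of cuticle collagen processing, was at 6.54 to 7 in lin-54 and at 8.29, 8.23 and 8.37 in the double mutant, but at 6.05 to 6.14 in mes-4 and 5.88 to 6.60 in wild type. F23H12.3 likewise rose by 1.72 with lin-54 absent and had a change of 0.02 with it present. C54D10.10, at 8.75 or more in lin-54 and 10.12 to 10.84 in the double mutant, was at 4.86 to 5.77 in the other 6 arrays, but its interaction did not pass (q = 0.346).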

How the data were processed

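The authors dissected germlines of 4 genotypes with 3 biological replicates each, amplified the RNA and hybridised it to Affymetrix C. elegans arrays. The deposited table holds log2 values of 22548 probe sets besides 77 controls, normalised by the authors with RMA in the affy package, per the labels' processing notes and the methods; the versions are not given in the sources used here. Levels ran from 3.05 to 14.65 and array medians from 5.81 to 5.93. Of the probe sets, 20701 matched 1 gene (17085 genes; names, chromosomes and gene order from RefSeq WBcel235, no coordinates).

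Limma (3.58.1, R 4.3.3) fitted 1 mean per genotype to the 12 arrays (the methods name limma, not the arrays fitted together), and Storey q-values were computed over all probe sets. For each gene the probe set with the smallest p was kept, and q at or below 0.05 was called. The interaction is the double mutant minus lin-54, minus the difference of mes-4 and wild type. The fit and q-values for the double mutant against lin-54 were tested on simulated probe-set values. The interaction, the choice of probe set per gene and the later steps were not.

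The comparison and the 30 gene lists (4 to 98 genes measured) were chosen with earlier results of these data known. Named genes were lin-54 and mes-4; the 20 largest X-linked increases, 5 X-linked decreases and 10 autosomal changes in each direction; up to 3 called genes per list; and the genes of 4 runs of neighbouring increases, of which 1 has 4 genes and the others tie at 3 with the remaining runs, named as well. Others named were chosen after their values were seen. Only the number of arrays, 3 per genotype, sets the precision.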

Additional observations from a re-analysis of the deposited data

Results flagged for a closer look

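For 6 genes the change between the double mutant and lin-54 differed from that between mes-4 and wild type, by a test of the difference itself (limma interaction, q at or below 0.05). With the replicate block 1 gene passed, and 1 to 3 did when most single arrays were left out. The difference of the 2 changes was 1.71 on the log2 scale for dpy-31 (q = 0.0349), 1.70 for F23H12.3 (q = 0.0318) and 1.68 for fipr-17 (q = 0.0318), all higher in the double mutant than in the other 3 genotypes. fipr-17, named for a fungus-induced protein family, was at 8.53 to 8.67 in lin-54, 9.65 to 10.13 in the double mutant and 5.07 to 5.76 in the other 6 arrays. F57A10.4 had a difference of 1.92 (q = 0.000508), since it was at 7.63 to 7.82 in mes-4 against 9.42 to 9.68 in wild type but at 10.25, 10.35 and 10.38 in the double mutant against 10.32, 10.29 and 10.05 in lin-54. C18D4.6 (−1.75, q = 0.0318) rose by 1.25 in the double mutant against lin-54 and by 3.00 in mes-4 against wild type. F13A2.4 (−1.04, q = 0.0318) rose in mes-4 to 8.65 to 8.93 and was at 7.08 to 7.18 in the double mutant against 6.69 to 6.95 in lin-54. The values of dpy-31, fipr-17 and C18D4.6 came from probe sets of the shared type. No group had enough arrays for a test of single outlying samples.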

How the results depend on the processing

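The X-linked increases stayed between 132 and 266 under every alternative tried, and the smaller counts moved more. Leaving out each array in turn gave 132 to 266 X-linked increases, 1 to 12 X-linked decreases, 30 to 189 autosomal increases, 91 to 206 autosomal decreases, 1 to 23 interaction genes, 24 to 55 list members up and 3 to 11 down. Without lin-54 replicate 1, 2 or 3 the autosomal counts were 189, 50 or 30 up and 188, 101 or 91 down, the X-linked decreases 12, 1 or 1 and the list members down 11, 3 or 3. Without double-mutant replicate 3 there were 50 autosomal increases, 118 decreases and 1 X-linked decrease, without replicate 1, 2 X-linked decreases, and without wild-type replicate 3, 3. The interaction genes were 23 when mes-4 replicate 1 was dropped, 11 when its replicate 3 was, 7 when double-mutant replicate 1 was and 1 to 3 for any other array. With only the compared 6 arrays the counts were 54 autosomal increases, 102 decreases, 1 X-linked decrease and 2 list members down, and the interaction could not be fitted. With the arrays centred they were 144, 97, 1 and 1. Without shared probe sets there were 58 autosomal increases, 3 X-linked decreases and 4 list members down, and kqt-2 had a change of 0.13. Benjamini-Hochberg adjustment gave 3 X-linked decreases and 4 list members down, a filter on dim probe sets 3 X-linked decreases, and averaging the probe sets of each gene 11 interaction genes. The cause was not tested.

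With the replicate number as a block (replicate block) there were 209 X-linked increases, 10 X-linked decreases, 129 autosomal increases, 227 decreases, 14 list members down and 1 interaction gene. Deviations of same-numbered lin-54 and double-mutant arrays correlated at 0.236, 0.324 and 0.0738, each best with its own number. The labels and methods state no pairing by number, and whether same-numbered arrays were handled together was not tested. The X-minus-autosome difference of 0.07 was 0.06 to 0.25 under its alternatives. Of 81 called genes among those named by the rule or the interaction, 52 stayed called under every alternative that measured them.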

Other observations

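Other X-linked genes outside the lists and the 20 largest increases rose too, and were picked here after their values were seen. sft-4 (3.38), a cargo receptor gene of the endoplasmic reticulum, lnp-1 (3.29), for lunapark at its tubule junctions, and rbg-1 (3.12), for a Rab3 GTPase-activating protein subunit, belong to membrane traffic. idh-2 (3.29), an isocitrate dehydrogenase gene, and bca-1 (2.56), a carbonic anhydrase gene, are metabolic. Of the 211 X-linked increases, 183 were in none of the 30 lists. Among 310 F-box genes (fbxa, fbxb and fbxc), 7 rose, 2 of them X-linked, and 5 fell. Over all genes 1.79% rose and 1.14% fell. The family median of −0.05 was close to that of all genes, −0.06. fbxa-107 was at 9.40, 9.82 and 9.49 in lin-54 and 8.45, 8.29 and 8.15 in the double mutant. goa-1, a G protein alpha subunit gene, fell by 1.00 (q = 0.00163) and mig-14, a Wnt secretion factor gene, by 1.04 (q = 0.0374).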
